A study of Mus musculus with 18 samples.

Results

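The comparison described here is that of DECP with DECN germinal centre B cells sorted 12 h after an injected antibody, a set of 6 libraries (3 of each) among the 18 of the series. The libraries were chosen by their labels alone. Hosts were C57BL/6 mice primed intraperitoneally with ovalbumin in alum. After 2 weeks they received B cells carrying the B1-8hi heavy chain, which gives binding to the hapten NP. The transferred mixture held 15% DECP cells, which were Ly75+/+ and marked by CD45.1, and 85% DECN cells, which were Ly75-/- and marked by CD45.1/2. NP-ovalbumin was then given in the footpads, and anti-DEC205-OVA, an antibody to DEC205 joined to ovalbumin, followed 6 days later. All 6 libraries thus came from hosts that received the antibody, and there is no group without it at 12 h. Cells were sorted from the popliteal lymph node as light zone germinal centre B cells (B220+, CD38-, CD95+, high CD83, low CXCR4), with CD45.2 separating DECN from DECP. The groups differ in Ly75, in the CD45 alleles and in their share of the transfer, and these cannot be told apart from the antigen that the antibody carries. The extraction protocol speaks of biological replicates, but the labels do not tie libraries to animals, so the tests see only the variation among these 6 libraries, and part of it may be technical.

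Ly75 encodes DEC205, an endocytic receptor that delivers what it binds to the compartments where peptides are loaded onto MHC class II. In a germinal centre, B cells in the light zone take up antigen through their receptor and present its peptides to follicular helper T cells. The help they get, through CD40 and cytokine receptors, is known to switch on NF-kB, AP-1 family factors and MYC, to drive cell growth, and to send cells to the dark zone to divide. Coupling ovalbumin to an antibody against DEC205 is a known way to give such help to the DEC205-bearing cells whatever the affinity of their receptor. Values below are TPM, a share of all transcripts in which each gene's reads are divided by transcript length. Log2 changes are differences of log2(TPM + 1) between the groups, DECP over DECN, which understate the change of genes at low levels. The words rose and fell are kept for genes with an adjusted p under 0.05 in limma, a linear model fitted to all genes, with Benjamini-Hochberg adjustment. A number in parentheses after a gene, with no other name, is its log2 change at 12 h. A gene is called wholly higher or lower where every DECP library lay above or below every DECN library.

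Ly75 stood at 39.6, 32.2 and 26.0 TPM in the DECP libraries (replicates 1 to 3, in this order throughout) and at 10.1, 8.53 and 9.52 TPM in the DECN libraries. The groups did not overlap, and the knockout libraries were not at 0. The ratio of means was 3.47, with a two-sided exact permutation p of 0.1, the smallest that 3 against 3 allows, and limma gave a log2 change of 1.68 (adjusted p = 0.0268). The 6 libraries held 13114 to 13597 genes at a TPM of at least 1, and their read depth is unknown because TPM keeps none. Correlations of log2 levels were 0.927 to 0.951 between libraries of a group and 0.906 to 0.919 between groups, and the first principal component, with 34.5% of the variance, separated the groups. Cytosolic ribosomal protein genes took 3.4 to 4.49% of TPM in DECP and 1.63 to 2.00% in DECN libraries. Immunoglobulin genes took 0.655 to 0.965% in DECP and 1.10 to 1.37% in DECN.

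All 7 B cell markers and all 9 germinal centre markers were detected and tested, and none was called by limma, which does not show equal levels. Of the germinal centre markers 0 were wholly higher and 3 wholly lower in DECP, with a median log2 change of -0.51. Mybl1, 1 of them, had a log2 change of -1.05 in limma (adjusted p = 0.0536). The authors' deposited table calls Mybl1 lower (log2 change -0.96, adjusted p = 0.00700). B cell markers summed to 1681 to 2526 TPM in DECP and 2250.4 to 2375 TPM in DECN, and germinal centre markers to 695 to 1040.0 and 992 to 1243 TPM. Marker sums of some other cell types were lower in DECP libraries. The 14 T cell markers summed to 201 to 218 TPM in DECP and 275 to 301 in DECN. Most of the sum came from Lck (146 to 158 and 181 to 218 TPM) and Cd2 (26.1 to 26.8 and 42.7 to 61.6 TPM). Cd3d, which reached 16.5 TPM in DECP and 17.3 in DECN, overlapped between the groups. Cd3e was at most 1.32 TPM in any library and Trac at most 0.732. The 14 macrophage markers summed to 675 to 838 and 1278 to 1663 TPM, nearly all from Apoe. Of the other macrophage markers, Itgam was at 0 in all 6 libraries and Csf1r reached at most 0.639 TPM. Cd68, Lyz2 and Mertk were detected in all 6 libraries, with overlap between the groups. Cd68 was at 4.27 to 38.4 TPM in DECP and 30.5 to 49.1 in DECN. Lyz2 reached 10.4 TPM in DECP and 10.3 in DECN, and Mertk at most 2.38 TPM in any library. Follicular dendritic and stromal markers summed to 107 to 147 and 156 to 291 TPM, mostly Cr2, which B cells also express, with Ccl21a at 0. Pecam1 was at 18.4 to 35.6 TPM in DECP and 29.0 to 45.9 in DECN. The 6 erythroid markers summed to 33.6 to 53 TPM in DECP and 9.83 to 38.2 in DECN, with overlap. Sums for naive and memory B cells (363 to 427 against 348 to 575 TPM), plasma cells (449 to 673 against 651 to 726), dendritic cells (34.6 to 35.5 against 33.0 to 41.6), neutrophils (3.08 to 4.04 against 3.72 to 5.35) and NK cells (5.71 to 8.94 against 7.37 to 20.6) overlapped between the groups. The part of these other cells in the differences below was not tested. In such bulk samples, fewer cells of a type and less RNA per cell cannot be told apart.

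At 12 h, 388 of 13429 genes passed the threshold (2.89%), of which 247 rose (1.84% of genes tested) and 141 fell (1.05%). A change of at least 2-fold was reached by 229 of the rises and by 106 of the falls, and the groups did not overlap for any of the 388. The median log2 change was 1.46 over the rises, -1.40 over the falls and -0.05 over all genes. The calls depended on all 6 libraries, since 90 to 101 genes were called without any 1 DECP library, and 0 without DECN replicate 1, 2 or 3, where 2088, 2039 and 2417 genes still had an unadjusted p under 0.05 in limma. The authors' deposited table of the same comparison lists 982 genes as higher and 478 as lower in DECP at an adjusted p under 0.05. It holds 244 of the 247 rises and 125 of the 141 falls in the same direction.

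**Figure D1:**
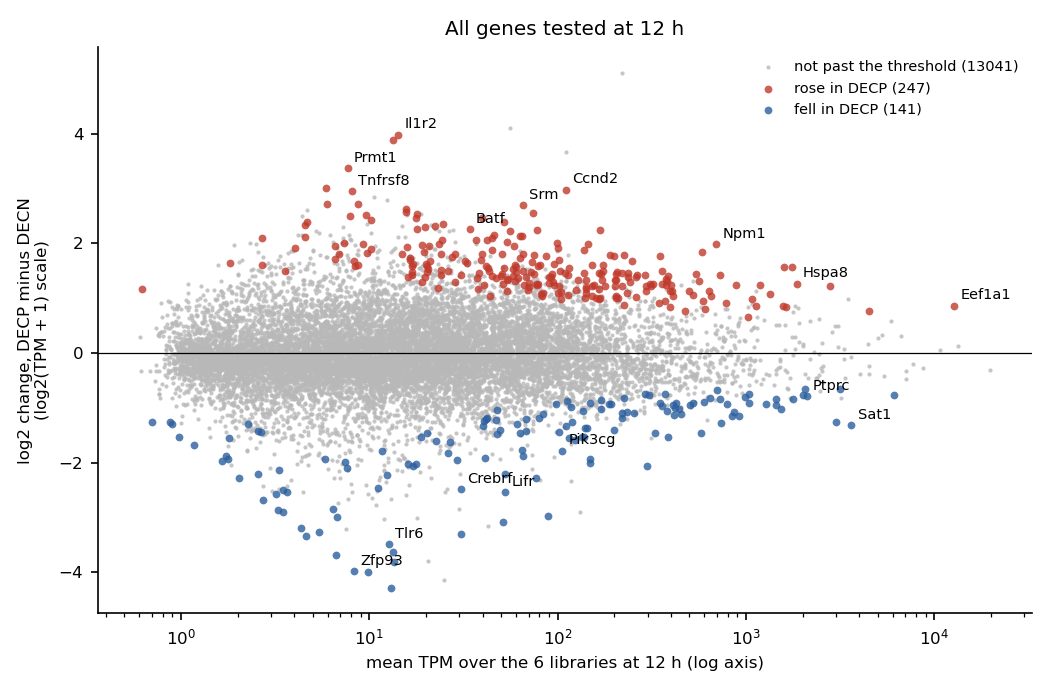
Each point is 1 of the 13429 genes tested, with its mean TPM over the 6 libraries on a log axis and its log2 change between DECP and DECN at 12 h. The 247 rises lie mostly between the middle and the high levels, and the 141 falls include genes at the lowest and the highest levels.

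The largest rises were spread over signalling, metabolism and the handling of RNA and protein. Il1r2, a decoy receptor that binds interleukin 1 without signalling, was at 36.1, 32.3 and 14.1 TPM in DECP and 0, 2.04 and 0.567 TPM in DECN libraries (log2 change 3.98, SE 0.52, adjusted p = 0.0179). Tnfrsf8, which encodes the TNF receptor family member CD30, measured 21.4, 12.4 and 11.8 TPM in DECP and 1.16, 1.07 and 0.874 TPM in DECN (log2 change 2.94, SE 0.32, adjusted p = 0.0125). Neither was above 2.04 TPM in a DECN library or below 11.8 TPM in a DECP library. Ppa1, the cytosolic enzyme that splits the pyrophosphate released by biosynthetic reactions, was at 112, 154 and 114 TPM in DECP and 16.0, 19.9 and 27.4 TPM in DECN (log2 change 2.55, SE 0.26, adjusted p = 0.0125). Prmt1, the main enzyme that adds asymmetric methyl groups to arginine, was at 19.4, 9.99 and 14.5 TPM in DECP and 2.14, 0 and 0 TPM in DECN (log2 change 3.37, SE 0.51, adjusted p = 0.0248). In each case the lowest DECP library was above the highest DECN library.

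Several other large rises were in metabolism. Bcat1, a cytosolic aminotransferase of branched-chain amino acids, stood at 19.1, 35.5 and 40.1 TPM in DECP and 4.58, 4.21 and 4.41 TPM in DECN (log2 change 2.53, SE 0.33, adjusted p = 0.0179), with no overlap. Fabp5, a fatty acid carrier, was at 21.5, 40.8 and 19.8 TPM in DECP and 4.45, 6.40 and 1.30 TPM in DECN (log2 change 2.57, SE 0.50, adjusted p = 0.0446), with replicate 2 the highest of DECP and no overlap. Gsto1, a glutathione transferase, measured 24.3, 12.4 and 17.4 TPM in DECP and 2.48, 2.62 and 2.23 TPM in DECN (log2 change 2.42, SE 0.32, adjusted p = 0.0179). DECN libraries held little Gsto1, and the lowest DECP library was still above them all. Other rises of this size were Zfp593 (2.72), Ankrd33b (2.62), Timm8a1 (2.49), a chaperone of the mitochondrial intermembrane space, Wdr46 (2.45), a nucleolar protein, Hsph1 (2.45), a partner of HSP70, Gbp2 (2.52), an interferon-induced GTPase, and Sssca1 (2.30).

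**Figure D2:**
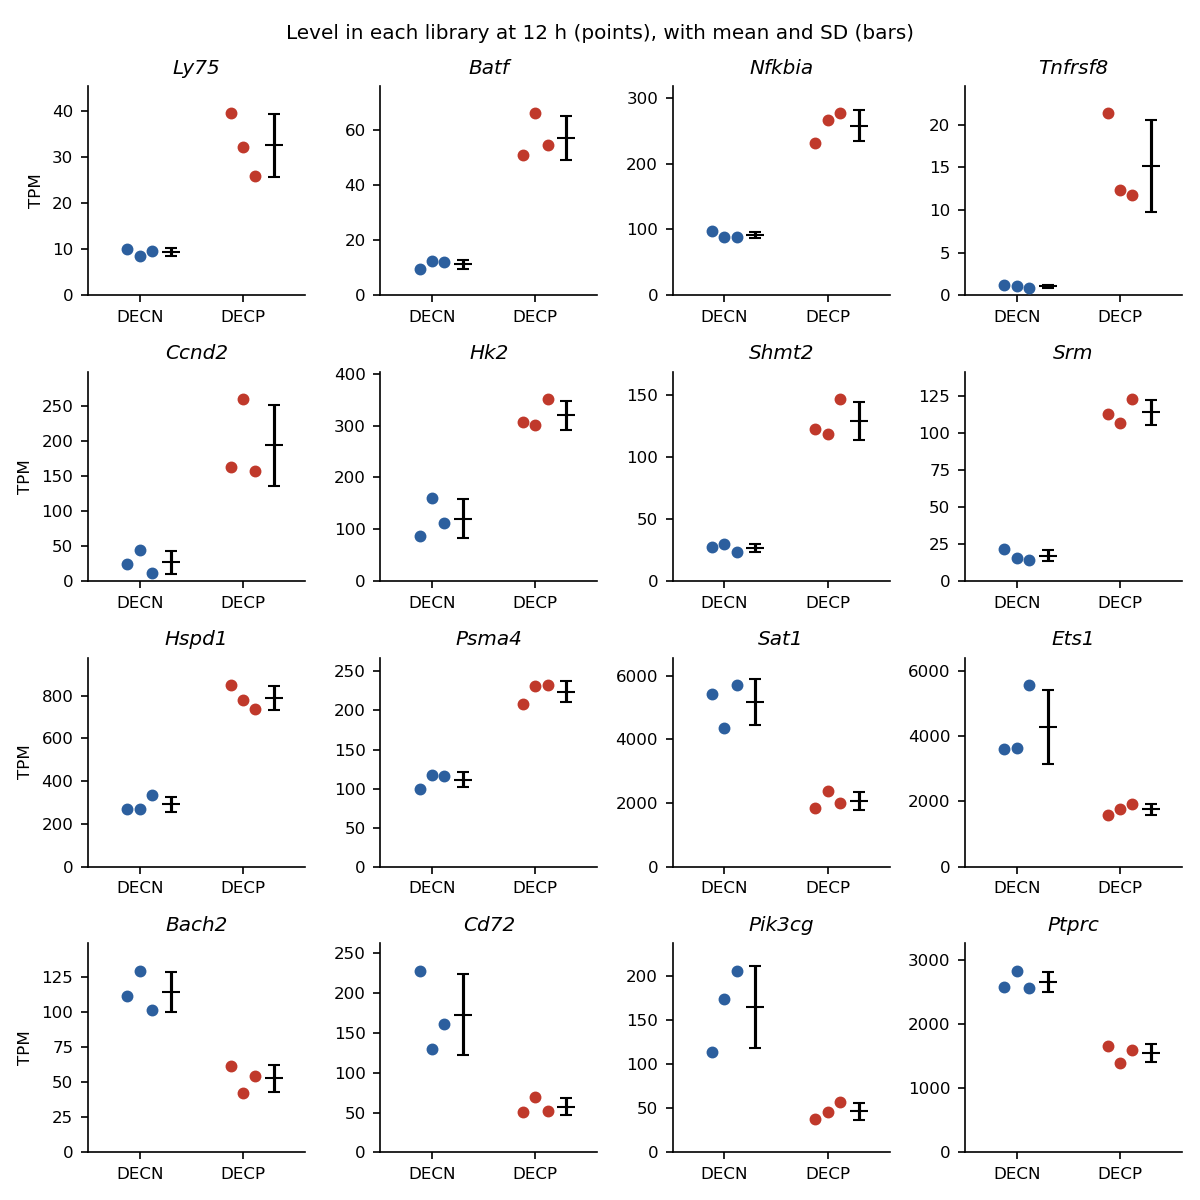
TPM on linear axes from 0 is shown for 16 genes that rose or fell at 12 h, with 1 point per library (3 of DECN, 3 of DECP) and bars at the mean ± SD of each group. In every gene shown the 3 DECP points lie on 1 side of the 3 DECN points.

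The largest falls included Tlr6 and Zfp93, which were almost silent in DECP libraries. Tlr6, a Toll-like receptor that pairs with TLR2 for bacterial lipopeptides, stood at 1.18, 1.55 and 0.968 TPM in DECP and 19.3, 31.2 and 22.1 TPM in DECN (log2 change -3.48, SE 0.30, adjusted p = 0.0125). Zfp93, a zinc finger gene, was at 0.0403, 0 and 0 TPM in DECP and 26.5, 8.26 and 14.8 TPM in DECN (log2 change -3.97, SE 0.41, adjusted p = 0.0125), with 2 of the DECP libraries at 0. Lifr, the receptor for leukaemia inhibitory factor, measured 14.7, 19.4 and 9.42 TPM in DECP and 66.9, 71.5 and 133 TPM in DECN (log2 change -2.54, SE 0.36, adjusted p = 0.0213). All 3 genes were present in each DECN library. Ankrd44, a subunit of a protein phosphatase 6 complex, was far from silent and stood at 58.8, 48.1 and 71.2 TPM in DECP and 266, 208 and 243 TPM in DECN (log2 change -2.0, SE 0.21, adjusted p = 0.0125). Yod1, a deubiquitinase, was at 25.7, 12.0 and 23.3 TPM in DECP and 159, 154 and 163 TPM in DECN (log2 change -2.97, SE 0.30, adjusted p = 0.0125). The DECN values of these 2 genes lay close together, and every DECP value was below them.

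Further falls of this size were Crebrf (-2.49), a regulator of the CREB3 factors, Arl8a (-2.46), a GTPase that moves lysosomes, Ypel5 (-2.28), Gab3 (-2.22), an adaptor of receptor kinases, Trp53bp2 (-2.09), a p53 partner, Tm6sf1 (-2.07), Cep350 (-2.07), a centrosomal protein, Abr (-1.99), Slc41a2 (-1.95), a magnesium carrier, Laptm4a (-1.92), a lysosomal membrane protein, and Dennd1c (-1.87). Hbb-bh1, an embryonic globin, measured 11, 16.8 and 27.8 TPM in DECP and 88.4, 58.9 and 110.2 TPM in DECN (log2 change -2.20, SE 0.38, adjusted p = 0.0349). The sums of the adult erythroid markers, given above, overlapped between the groups.

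Among the most abundant genes that rose, outside the ribosomal proteins, were factors of translation and folding. Eef1a1, the factor that brings aminoacyl-tRNA to the ribosome, stood at 13449.8, 15795 and 20456 TPM in DECP and 8149, 9719.9 and 9111 TPM in DECN (log2 change 0.86, SE 0.17, adjusted p = 0.0446). Eif5a, the protein that carries the hypusine made from spermidine, was at 903, 1038 and 1259 TPM in DECP and 397, 393 and 395 TPM in DECN (log2 change 1.42, SE 0.16, adjusted p = 0.0127). Hspd1, the mitochondrial chaperonin HSP60, measured 851, 777 and 739 TPM in DECP and 271, 272 and 333 TPM in DECN (log2 change 1.44, SE 0.15, adjusted p = 0.0125). The groups were apart in all 3. Smaller rises at high levels were those of Slc25a5 (0.80), the carrier that exchanges ADP for ATP across the mitochondrial membrane, Kars (0.85), the tRNA synthetase for lysine, Set (0.76) and Ppia (0.86). Genes such as Eef1a1, Ppia and Set have processed copies in the genome, so that reads may be divided between copies.

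The most abundant genes that fell included regulators of B cell signalling and shape. Sat1, the enzyme that acetylates spermidine and spermine for breakdown, stood at 1832, 2394 and 1995 TPM in DECP and 5434, 4359.9 and 5718 TPM in DECN (log2 change -1.32, SE 0.16, adjusted p = 0.0156). Ets1, a transcription factor of resting lymphocytes, was at 1592, 1777 and 1921 TPM in DECP and 3617, 3629.8 and 5579.5 TPM in DECN (log2 change -1.25, SE 0.19, adjusted p = 0.0268). Sema4d, a semaphorin on the lymphocyte surface, measured 1068, 1011 and 866 TPM in DECP and 1916, 1710.4 and 2071 TPM in DECN (log2 change -0.95, SE 0.14, adjusted p = 0.0247). No DECP library reached the level of a DECN library in these genes. Apoe, which carries lipid, stood at 637, 790.4 and 724 TPM in DECP and 1238, 1615 and 1221 TPM in DECN (log2 change -0.91, SE 0.17, adjusted p = 0.0374), and it made up most of the macrophage marker sum given above. The others were Tnfaip8 (-0.93), Arpc5 (-0.84), a subunit of the Arp2/3 complex, Zfp263 (-0.83), Ablim1 (-0.81), which binds actin, Sp140 (-0.74), a nuclear body protein, Ppp1r16b (-0.66), Dpysl2 (-0.65) and Ptprc (-0.78).

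Promoter windows are shown for 5 of the genes named above or below, to let the E-box and ETS motifs be read where they occur. Each runs from 250 bases before to 50 after the transcription start, 5′ to 3′ on the strand of the gene, from RefSeq on GRCm38.p6. Capitals mark CACGTG, the E-box that MYC and MAX are known to bind, in Ppa1, Hspd1, Ran and Tnfrsf8. In Tnfrsf8 they also mark TGAGTCA, a match to the AP-1 motif TGANTCA, and in Sat1 the ETS motif CCGGAAG on either strand. No marked motif overlaps another.
Ppa1, chr10:61648371-61648670: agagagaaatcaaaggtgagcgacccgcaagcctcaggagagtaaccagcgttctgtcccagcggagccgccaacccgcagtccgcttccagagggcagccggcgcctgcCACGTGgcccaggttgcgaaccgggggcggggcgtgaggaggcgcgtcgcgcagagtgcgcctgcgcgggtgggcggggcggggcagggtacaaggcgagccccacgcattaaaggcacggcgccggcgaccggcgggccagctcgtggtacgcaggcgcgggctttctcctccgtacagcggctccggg
Hspd1, chr1:55088194-55088493: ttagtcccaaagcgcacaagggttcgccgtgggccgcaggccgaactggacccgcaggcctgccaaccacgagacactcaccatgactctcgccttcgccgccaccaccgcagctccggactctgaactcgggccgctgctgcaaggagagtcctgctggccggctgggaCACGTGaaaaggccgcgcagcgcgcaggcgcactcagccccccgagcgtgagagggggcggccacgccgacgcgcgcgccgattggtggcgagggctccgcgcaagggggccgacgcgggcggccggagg
Ran, chr5:129019906-129020205: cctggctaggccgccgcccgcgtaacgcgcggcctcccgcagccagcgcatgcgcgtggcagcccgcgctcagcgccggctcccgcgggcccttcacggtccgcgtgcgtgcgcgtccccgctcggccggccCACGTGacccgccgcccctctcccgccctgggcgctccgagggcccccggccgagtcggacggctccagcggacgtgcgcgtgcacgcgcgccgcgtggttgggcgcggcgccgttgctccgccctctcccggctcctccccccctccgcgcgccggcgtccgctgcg
Tnfrsf8, chr4:145315115-145315414: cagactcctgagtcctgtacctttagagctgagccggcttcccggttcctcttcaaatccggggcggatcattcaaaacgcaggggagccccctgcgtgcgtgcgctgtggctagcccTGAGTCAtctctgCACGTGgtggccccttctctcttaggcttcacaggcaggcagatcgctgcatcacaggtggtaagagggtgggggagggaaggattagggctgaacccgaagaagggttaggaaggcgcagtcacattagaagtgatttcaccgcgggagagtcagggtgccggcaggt
Sat1, chrX:155216400-155216699: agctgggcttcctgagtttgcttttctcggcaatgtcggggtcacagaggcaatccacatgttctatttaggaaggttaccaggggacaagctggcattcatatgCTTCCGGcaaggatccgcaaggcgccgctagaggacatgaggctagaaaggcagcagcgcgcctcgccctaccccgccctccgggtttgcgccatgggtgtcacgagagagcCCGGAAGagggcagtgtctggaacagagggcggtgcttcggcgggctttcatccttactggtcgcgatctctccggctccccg
Ppa1 and Ran lie on the forward strand and Hspd1, Tnfrsf8 and Sat1 on the reverse strand. The E-box begins 140 bases before the start in Ppa1, 80 in Hspd1 and 118 in Ran. In Tnfrsf8 the AP-1 match begins 132 and the E-box 119 bases before the start, and in Sat1 the ETS matches begin 145 and 33 bases before it.

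CACGTG lay in the windows of 40 of 194 genes that rose (20.6%), 7 of 92 that fell (7.61%) and 11.3% of the 9654 tested genes with a window. CCGGAAG lay in 27.3%, 15.2% and 20.3%, TGANTCA in 8.25%, 9.78% and 6.41%, and TTCNNNGAA, a STAT motif, in 9.79%, 5.43% and 8.56%. Both strands were searched, protein-coding genes only, and a gene with several windows counted when any held the motif. Windows were found for 82.9% of the rises, 83.6% of the falls and 79.5% of the genes tested, with a median GC content of 60.2%, 60.0% and 60.0%. These shares describe letters in a window and were not tested.

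The genes were read against 58 lists of pathways and cell states, with 2157 different genes tested, of which 89 rose and 30 fell. Of the lists, 27 held rises and no fall, 11 falls and no rise, 9 both and 11 neither. The shares to read them against are the 1.84% that rose and the 1.05% that fell among all genes, and the median log2 change of -0.05. Over all genes, 12.6% were wholly higher and 13.7% wholly lower in DECP. The lists were not tested as sets.

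**Figure D3:**
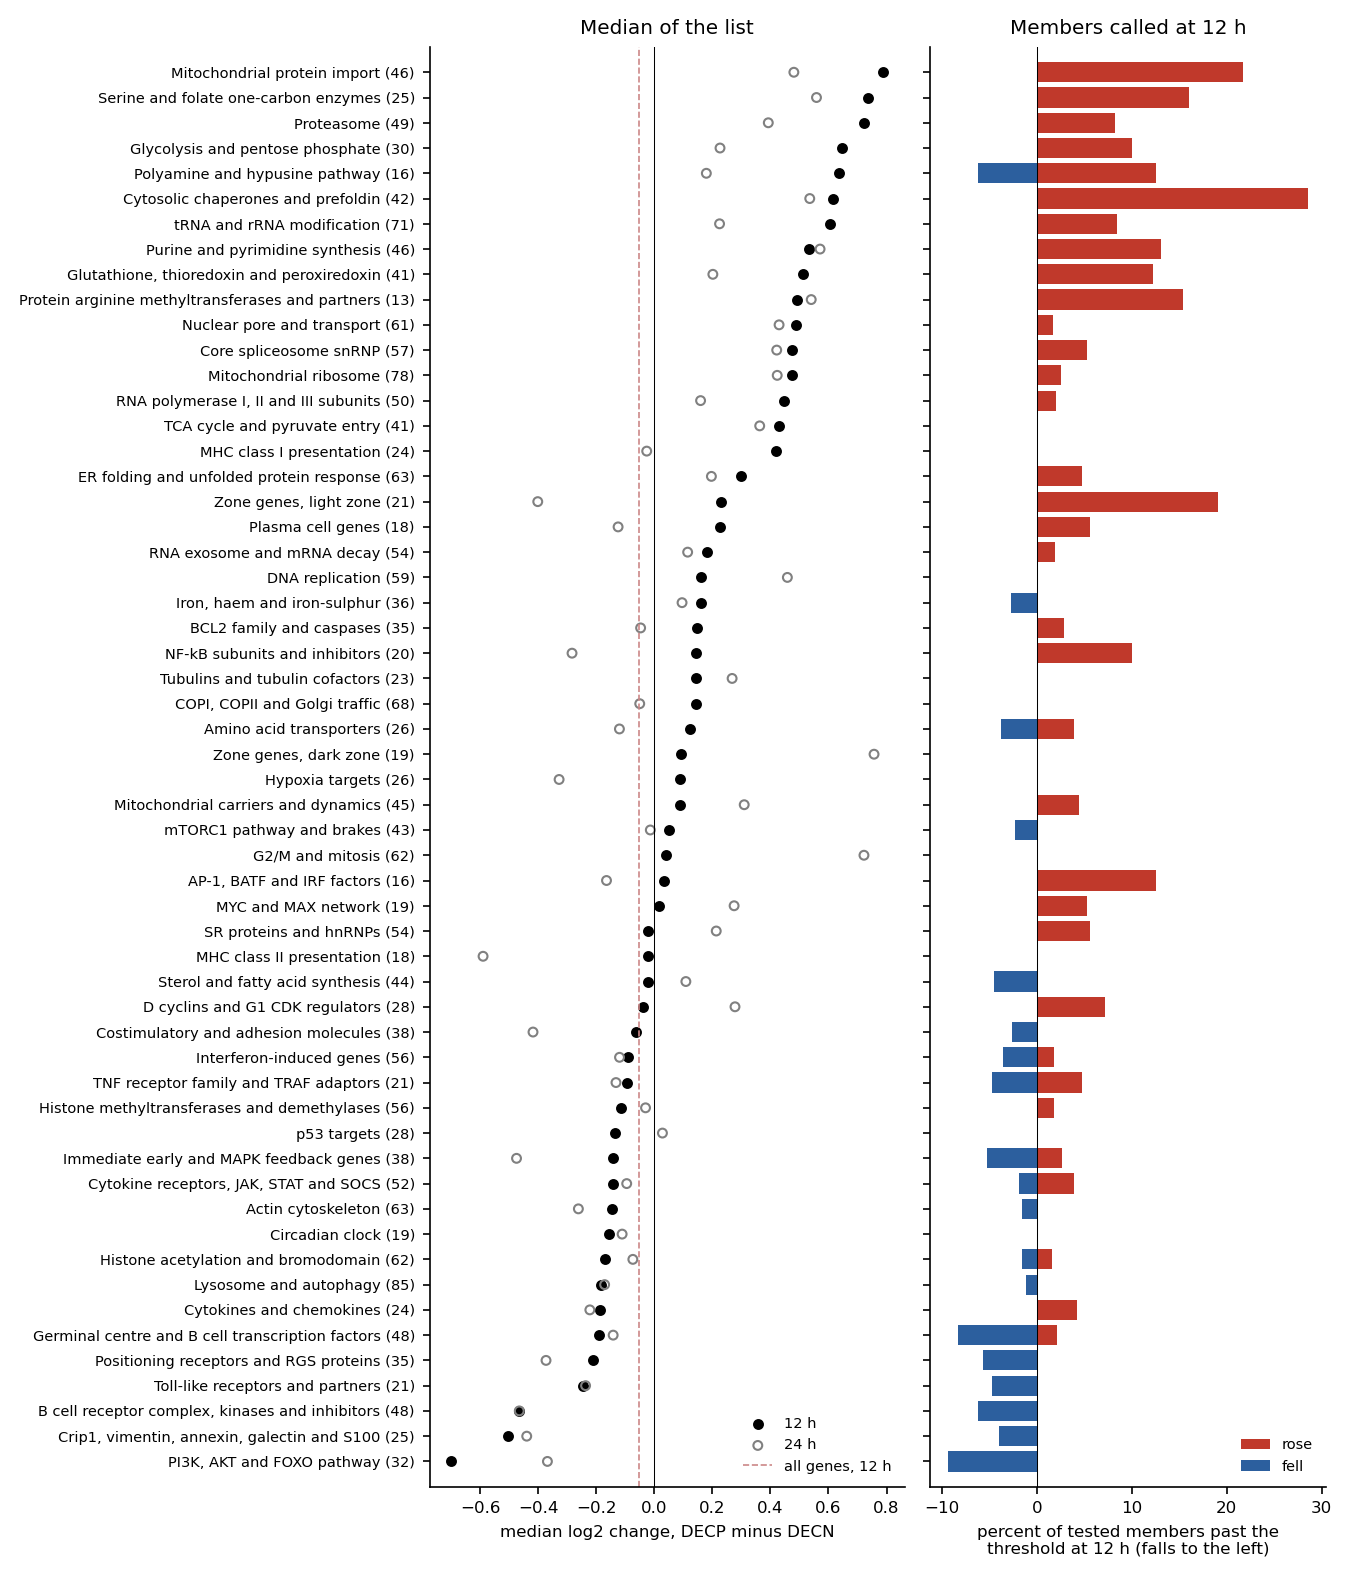
The left panel gives the median log2 change of the members tested of lists with at least 10 (their number in brackets), filled points for 12 h and open points for 24 h, with a dashed line at the 12 h median of all genes (-0.05). Bars at the right give the percentage of members that rose or fell at 12 h. At 12 h mitochondrial protein import lies at the top with 0.79 and the PI3K, AKT and FOXO pathway at the bottom with -0.70.

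In the lists of signals that follow T cell help, most genes called rose. Among all genes 1.84% rose and 1.05% fell. The share that rose was 10% for NF-kB and 12.5% for AP-1, BATF and IRF factors. It was 4.76% for TNF receptors, 4.17% for cytokines, 3.85% for cytokine receptors and 2.63% for immediate early genes. Falls were 4.76% of TNF receptors, 1.92% of cytokine receptors, 5.26% of immediate early genes and 0 in the others. Each share above 0 rests on 1 or 2 genes. Of 20 NF-kB subunits and inhibitors tested, 2 rose and 0 fell, with 5 members wholly higher and 4 wholly lower in DECP libraries. Nfkb2, the precursor of the p52 subunit, was at 32.9, 25.6 and 34.2 TPM in DECP and 9.33, 6.42 and 5.94 TPM in DECN (log2 change 1.97, SE 0.28, adjusted p = 0.0208), and Nfkbia, the inhibitor IkB alpha that NF-kB itself induces, at 231, 267 and 277 TPM in DECP and 97.2, 88.8 and 88 TPM in DECN (log2 change 1.49, SE 0.16, adjusted p = 0.0125). Batf and Junb, AP-1 family partners, rose among 16 AP-1, BATF and IRF factors, and 0 fell. Junb measured 54.7, 46.8 and 78.2 TPM in DECP and 22.3, 19.5 and 12.0 TPM in DECN (log2 change 1.70, SE 0.31, adjusted p = 0.0404). Of 21 TNF receptors and TRAF adaptors, Tnfrsf8 rose and Traf5, an adaptor of that family, fell (-1.06). Cd40 itself stood at 303 ± 78.2 TPM in DECP and 241 ± 37.5 in DECN, a log2 change of 0.30, with an adjusted p of 0.550. Of 24 cytokine and chemokine genes, 1 rose, Mif (2.24), and 0 fell. Of 52 cytokine receptors and JAK, STAT or SOCS genes, Il1r2 and the kinase Pim3 (1.61) rose and Lifr fell. Among 38 immediate early and MAPK feedback genes, Junb rose, and Rgs2 (-1.54) and Btg1 (-1.28) fell.

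Among cell cycle genes, Ccnd2 and Cdk6 rose at 12 h. Ccnd2, the cyclin D2 gene, which drives entry into the cycle, was at 164, 260.2 and 158 TPM in DECP and 24.5, 43.9 and 11.2 TPM in DECN (log2 change 2.98, SE 0.47, adjusted p = 0.0276), and its kinase partner Cdk6 at 513, 556 and 459.6 TPM in DECP and 276, 273 and 299 TPM in DECN (log2 change 0.85, SE 0.15, adjusted p = 0.0350). They were the 2 rises among 28 D cyclins and G1 regulators, with 0 falls. Of 59 DNA replication genes and 62 genes of G2 and mitosis, 0 were called by limma, with 8 and 7 at an unadjusted p under 0.05, and the authors' deposited table calls 3 and 1 higher and 0 and 1 lower. The median log2 changes at 12 h were 0.16 for replication, 0.05 to 0.28 with each library left out, and 0.04 for G2 and mitosis, -0.10 (without DECP replicate 3) to 0.27 (without DECN replicate 3) and -0.05 without DECN replicate 1, so that the latter has no settled sign. At 24 h, 11 replication genes and 13 mitotic genes rose and 0 fell, with medians of 0.46 and 0.72, set beside 2.72% of genes that rose and 1.32% that fell at that time. Myc measured 262, 475 and 272 TPM in DECP and 133, 88 and 167 TPM in DECN (log2 change 1.36, SE 0.32, adjusted p = 0.0658), so that its groups were apart and it did not pass the threshold in limma. In the authors' deposited table its log2 change is 1.26 with an adjusted p of 0.00565, under the threshold. Of 19 genes of the MYC and MAX network, 1 rose, the helicase Ruvbl1 (1.35), and 0 fell. Of 21 light zone genes, Batf, Nfkbia, Ccnd2 and the survival gene Bcl2a1d (1.54) rose and 0 fell. Of 19 dark zone genes 0 were called by limma at 12 h (4 at an unadjusted p under 0.05, and 1 higher and 0 lower in the authors' deposited table), with a median of 0.09, and 4 rose and 1 fell at 24 h, with a median of 0.76. Cxcr4, a dark zone receptor that the sort selected against, stood at 81.8 ± 20.2 TPM in DECP and 75.7 ± 10.2 in DECN, a log2 change of 0.09 (adjusted p = 0.875), and its sign turned without DECP replicate 3 (-0.094).

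Enzymes that supply one-carbon units, nucleotides and polyamines gave rises, and Sat1 was the 1 fall. Of 25 serine and folate enzymes, 4 rose and 0 fell, and the median was 0.74. Shmt2, the mitochondrial enzyme that takes a one-carbon unit from serine, was at 123, 119 and 147 TPM in DECP and 27.1, 29.8 and 23.2 TPM in DECN (log2 change 2.24, SE 0.20, adjusted p = 0.0125), and Mthfd1, which passes such units to purine and thymidine synthesis, at 84.5, 80.9 and 111 TPM in DECP and 12.9, 20.4 and 24.6 TPM in DECN (log2 change 2.23, SE 0.29, adjusted p = 0.0173). The others were Phgdh (1.43), the entry enzyme of serine synthesis, and Gcsh (1.41), of the glycine cleavage system. Of 46 genes of purine and pyrimidine synthesis, 6 rose and 0 fell, 24 were wholly higher and 2 wholly lower in DECP, and the median was 0.53. Among them were Aprt (2.31), which salvages adenine, Gart (1.44) and Adsl (1.11), of purine synthesis, and the kinases Nme1 (1.04) and Guk1 (1.59). In the polyamine pathway, with 16 genes, Srm and Eif5a rose and Sat1 fell, as given above for the last 2. Srm makes the spermidine that Sat1 acetylates, and it measured 113, 106 and 123 TPM in DECP and 21.3, 15.4 and 14.3 TPM in DECN (log2 change 2.69, SE 0.23, adjusted p = 0.0125). Of 26 amino acid transporters, Slc7a5 (1.48), a carrier of large neutral amino acids, rose and Slc38a6 (-1.02) fell.

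Of 30 genes of glycolysis and the pentose phosphate pathway, 3 rose and 0 fell, with a median of 0.65. Hk2, an inducible hexokinase, stood at 307, 301 and 352 TPM in DECP and 86.8, 161 and 112 TPM in DECN (log2 change 1.45, SE 0.24, adjusted p = 0.0319). Pkm, the pyruvate kinase of growing cells, was at 295, 309 and 427 TPM in DECP and 124, 131 and 134 TPM in DECN (log2 change 1.38, SE 0.19, adjusted p = 0.0195), and Pgam1 changed by 1.24. The TCA cycle had 0 calls by limma (11 at an unadjusted p under 0.05, and 6 higher and 1 lower in the authors' deposited table) among 41 genes, with a median of 0.43 and 34 members with a higher mean in DECP. Of 41 glutathione and thioredoxin genes, 5 rose and 0 fell, with a median of 0.51. They were Gsto1 (2.42), Gstt1 (2.13), Gstt2 (1.47), the peroxiredoxin Prdx1 (1.14) and the thioredoxin Txn1 (1.37), and the 2 theta transferases are close paralogs that may share reads. The sterol and fatty acid list had 0 rises and 2 falls among 44, Abcg1 (-1.18), a cholesterol exporter, and Pmvk (-1.46).

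Mitochondrial protein import held the highest median of the lists with at least 5 members tested. Of 46 members, 10 rose and 0 fell, 28 were wholly higher and 3 wholly lower in DECP, and the median was 0.79. Hspe1, the HSP10 partner of Hspd1, measured 94.7, 88.6 and 128 TPM in DECP and 26.5, 20.2 and 21.6 TPM in DECN (log2 change 2.13, SE 0.23, adjusted p = 0.0125), and Timm23, the channel of the inner membrane, at 159, 213 and 205 TPM in DECP and 86.8, 88.8 and 90.1 TPM in DECN (log2 change 1.10, SE 0.18, adjusted p = 0.0319). Hspd1 and Hspe1 lie head to head on chromosome 1 (GRCm38), Hspd1 at 55077835 to 55088243 and Hspe1 at 55088132 to 55091307. Their annotated starts overlap, and the libraries do not mark strand. Chchd4, an oxidoreductase of the intermembrane space, changed by 1.51, and Dnajc15, a J protein of the import motor, by 1.72. Of 78 mitochondrial ribosome genes, Mrps6 (1.91) and Mrpl12 (1.67) rose and 0 fell, with a median of 0.47 and 73 members with a higher mean in DECP. Of 45 carriers and dynamics genes, Slc25a5 and Slc25a26 (1.63), which imports S-adenosylmethionine, rose and 0 fell. Mitochondrially encoded genes took 2.51 to 2.84% of TPM in DECP and 2.40 to 3.04% in DECN, with overlap.

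Of 71 genes of tRNA and rRNA modification, 6 rose (8.45%, beside 1.84% of all genes) and 0 fell, 32 were wholly higher and 1 wholly lower, and the median was 0.61. Nsun2, which methylates cytosine in tRNA, stood at 68.3, 75.4 and 89.8 TPM in DECP and 25.7, 34.5 and 30.6 TPM in DECN (log2 change 1.33, SE 0.22, adjusted p = 0.0311), and Dkc1, the pseudouridine synthase dyskerin, at 285, 321 and 271 TPM in DECP and 163, 160.4 and 155 TPM in DECN (log2 change 0.87, SE 0.15, adjusted p = 0.0365). The rest were Nop2 (1.65), Wdr4 (1.42), Dus4l (1.59) and Rpusd4 (1.80). Ran, the GTPase that gives nuclear transport its direction, was at 489, 516 and 517 TPM in DECP and 202, 214 and 221 TPM in DECN (log2 change 1.26, SE 0.14, adjusted p = 0.0125), the 1 rise among 61 nuclear pore and transport genes, whose median was 0.49. Polr1b, a subunit of RNA polymerase I, changed by 1.21, the 1 rise among 50 polymerase subunits (median 0.45). A single rise in each of these 2 lists (1.64% and 2.0%) is near the share of all genes that rose. Of the transport genes 20 were wholly higher and 2 wholly lower, and of the polymerase subunits 17 and 1. Over all genes those shares were 12.6% and 13.7%. The authors' deposited table calls 14 transport genes and 8 polymerase subunits higher, and 0 lower in either list. In the core spliceosome Prpf31 (1.27), Snrpd1 (1.2) and Lsm8 (1.17) rose among 57, with a median of 0.48. Prmt1 and Wdr77 (1.40), a partner of PRMT5, rose among 13 genes of arginine methylation.

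Among 54 SR proteins and hnRNPs, Hnrnpa1 (1.34), Hnrnpc (0.91) and Syncrip (1.22) rose and 0 fell. Calls among chromatin enzymes were near the shares of all genes, 1.84% that rose and 1.05% that fell. Of histone methyltransferases and demethylases 1.79% rose and 0 fell, and of acetylation and bromodomain genes 1.61% rose and 1.61% fell. Smyd2, a lysine methyltransferase, measured 11, 8.58 and 13.7 TPM in DECP and 2.11, 2.20 and 1.91 TPM in DECN (log2 change 1.96, SE 0.28, adjusted p = 0.0221), the 1 call among 56 histone methyltransferases and demethylases, and its 24 h change was 2.39 (adjusted p = 0.0501). Of 62 genes of histone acetylation and bromodomain proteins, Hat1 (0.99), which acetylates newly made histone H4, rose and Smarca2 (-1.37), the BRM remodeller, fell.

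Chaperone and proteasome genes gave rises and no fall. Of 49 proteasome genes, 4 rose and 0 fell, 34 were wholly higher and 0 wholly lower in DECP, and the median was 0.72. Psma4, a ring subunit of the core, stood at 209, 231 and 233 TPM in DECP and 100, 117 and 116 TPM in DECN (log2 change 1.01, SE 0.16, adjusted p = 0.0298), and the assembly chaperone Psmg1 at 40.8, 42.3 and 52.6 TPM in DECP and 18.5, 13.1 and 17.3 TPM in DECN (log2 change 1.43, SE 0.24, adjusted p = 0.0338). Psma7 changed by 0.76 and Psma5 by 1.10. Of 42 cytosolic chaperones and prefoldins, 12 rose and 0 fell, with a median of 0.62. The chaperonin subunit Cct6a was at 457, 544 and 619 TPM in DECP and 145, 167 and 161 TPM in DECN (log2 change 1.76, SE 0.17, adjusted p = 0.0125), and Cct8 (1.79), Cct5 (1.45) and Cct7 (1.38) of the same ring rose with it. Fkbp4 (1.61) and Ptges3 (1.24) are partners of HSP90. Of 63 genes of folding in the endoplasmic reticulum, Derl3 (1.6), Hspa5 (0.95), the chaperone BiP, and Pdia4 (2.06) rose and 0 fell, with a median of 0.30. Derl3 was also the 1 rise among 18 plasma cell genes. Of 85 lysosome and autophagy genes, 0 rose and Ppt1 (-1.12) fell, with 3 wholly higher and 16 wholly lower.

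Genes that couple the B cell receptor to its signals gave falls and no rise. Of 48 receptor components, kinases and inhibitors, 0 rose and 3 fell, 1 was wholly higher and 21 wholly lower, and the median was -0.47. Btk, a kinase downstream of the receptor, measured 139, 149.6 and 162 TPM in DECP and 299, 332 and 324 TPM in DECN (log2 change -1.08, SE 0.15, adjusted p = 0.0208), and Cd72, an inhibitory co-receptor, at 50.7, 69.6 and 52.2 TPM in DECP and 228, 129 and 161 TPM in DECN (log2 change -1.55, SE 0.26, adjusted p = 0.0321). The third, Ptprc, is described with chromosome 1 below. At 24 h, 10 members fell and 0 rose, with a median of -0.47. Of 32 genes of the PI3K, AKT and FOXO pathway, 0 rose and 3 fell, 2 were wholly higher and 13 wholly lower, and the median was -0.70, beside -0.37 at 24 h, when 1 fell. Pik3cg, a PI3K catalytic subunit, stood at 37.4, 45.3 and 57.0 TPM in DECP and 114, 174 and 206 TPM in DECN (log2 change -1.78, SE 0.28, adjusted p = 0.0275). Inpp4a, a phosphatase of its lipid products, was at 129.8, 123 and 132 TPM in DECP and 275, 213 and 255 TPM in DECN (log2 change -0.94, SE 0.17, adjusted p = 0.0374). The third fall of the list was Crebrf (-2.49), which is named above as a regulator of the CREB3 factors rather than as a part of this pathway. Foxo1 measured 36.1, 36.5 and 13 TPM in DECP and 51.6, 60.6 and 72.2 TPM in DECN (log2 change -1.2, SE 0.41, adjusted p = 0.158). Its groups were apart and it did not pass the threshold. T cell, macrophage and stromal marker sums, mostly from Lck, Apoe and Cr2, were lower in the same libraries, as given above. Their part in these lists was not tested.

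Transcription factors of B cell identity gave 4 falls and 1 rise among 48 tested. Bach2, a repressor known to restrain plasma cell fate, stood at 61.5, 42.5 and 54.1 TPM in DECP and 111, 129.5 and 101 TPM in DECN (log2 change -1.11, SE 0.22, adjusted p = 0.0446), and Ebf1, which sets B cell identity, at 1368, 1549 and 1531 TPM in DECP and 2251, 2565 and 2794 TPM in DECN (log2 change -0.77, SE 0.13, adjusted p = 0.0350). Ets1, given above, and Klf13 (-0.82) were the other falls, and Runx3 (1.24) rose. Bcl6, the germinal centre repressor, was at 11.4 ± 0.800 TPM in DECP and 17.3 ± 6.79 in DECN, a log2 change of -0.51 (adjusted p = 0.437), and Irf4 at 4.14 ± 1.19 TPM in DECP and 1.37 ± 0.649 in DECN, a log2 change of 1.13 (adjusted p = 0.121). The authors' deposited table calls Irf4 higher (log2 change 1.33, adjusted p = 0.0220) and does not call Bcl6 (adjusted p = 0.414). Of 35 positioning receptors and RGS proteins, 0 rose, and Rgs2 and Rgs18, which switch off G protein signals, fell. Of 38 costimulatory and adhesion genes, 0 rose and Sema4d fell, and Cd86 measured 226 ± 20.1 TPM in DECP and 388 ± 71.5 in DECN, a log2 change of -0.76 (adjusted p = 0.0751). The authors' deposited table calls Cd86 lower (log2 change -0.68, adjusted p = 0.0277). MHC class II presentation had 0 calls by limma among 18 at 12 h (5 at an unadjusted p under 0.05) and 8 falls at 24 h. MHC class I presentation had 0 calls by limma among 24 at 12 h (8 at an unadjusted p under 0.05), with a median of 0.42 and 8 wholly higher members. The authors' deposited table of the 12 h comparison calls 0 class II members higher and 1 lower, and 4 class I members higher and 0 lower, among them B2m (0.84, adjusted p = 0.0137). Among 56 interferon-induced genes, Ifit1bl1 (-3.63) and Slfn8 (-1.48) fell and Gbp2 rose. Of 25 genes of the Crip1, vimentin, annexin, galectin and S100 list, Anxa6 (-1.61) fell and 0 rose, with a median of -0.50.

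In limma 0 members passed the threshold in the lists of p53 targets, hypoxia targets, COPI and COPII traffic, tubulins and the circadian clock, with 6, 7, 12, 6 and 3 at an unadjusted p under 0.05. The authors' deposited table calls 3, 4, 3, 2 and 2 of them higher and 1, 1, 0, 0 and 0 lower. Per2, a clock repressor, has a log2 change of 1.52 in the authors' deposited table (adjusted p = 0.000757) and of 1.19 in limma (adjusted p = 0.0804). Of 43 genes of the mTORC1 pathway, 0 rose and Fnip1 (-1.04), a partner of folliculin, fell. Mtor itself stood at 8.58 ± 1.81 TPM in DECP and 8.42 ± 4.71 in DECN, a log2 change of 0.16 (adjusted p = 0.889), and its sign turned without DECN replicate 1 (-0.32).

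The share of genes called was larger among genes at higher levels. Among genes with a mean of 0 to 5 TPM, 0.246% rose and 0.629% fell, and among those of at least 500 TPM, 8.39% rose and 9.06% fell. It also differed with the length of the longest transcript. Of genes of 1000 to 2000 bases, 3.95% rose and 0.782% fell, whereas 0.538% rose and 1.10% fell of those of 4000 to 8000 bases. Removal of a trend on length in each library, an alternative added after the data were seen, gave 398 calls, 350 of them shared. Pseudogenes had 11 rises and 24 falls among 1055 tested. Of the falls, 4 were copies of ribosomal protein genes, and these were set against their parents, after their values were seen. Rps6-ps3 and 2 copies of Rpl31 fell where the parent rose, whereas Rpl32, the parent of Rpl32-ps (-2.03), had a log2 change of 0.48 (adjusted p = 0.396). Other copies of these parents rose with them, so copies did not move in 1 direction. Rpl31-ps8 had means of 87.2 TPM in DECP and 16.0 in DECN (log2 change 2.39, adjusted p = 0.0459). Rps6-ps4 had means of 319 and 146 TPM (log2 change 1.09, adjusted p = 0.0436). Rps6 was at 554, 615 and 881 TPM in DECP and 283, 339 and 300.2 TPM in DECN (log2 change 1.12, SE 0.20, adjusted p = 0.0378), and its copy Rps6-ps3 at 0, 0 and 1.01 TPM in DECP and 40.0, 23.8 and 13.4 TPM in DECN (log2 change -4.28, SE 0.47, adjusted p = 0.0125). Rpl31 measured 106, 107 and 118 TPM in DECP and 50.9, 43.5 and 43.3 TPM in DECN (log2 change 1.25, SE 0.18, adjusted p = 0.0221), and Rpl31-ps6 at 0 in every DECP library and 5.75, 7.0 and 13.2 TPM in DECN (log2 change -3.20, SE 0.33, adjusted p = 0.0125). The other copy of Rpl31 that fell was Rpl31-ps23 (-1.29). Sap18b, a near copy of Sap18, stood at 27.1, 11.3 and 39.4 TPM in DECP and 0, 1.17 and 1.03 TPM in DECN (log2 change 3.88, SE 0.52, adjusted p = 0.0184), while Sap18 was at 43.2 ± 7.84 TPM in DECP and 47.0 ± 8.37 in DECN, a log2 change of -0.12 (adjusted p = 0.836). Reads of such copies are divided by an estimate, so the values of each copy alone are uncertain.

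**Figure D4:**
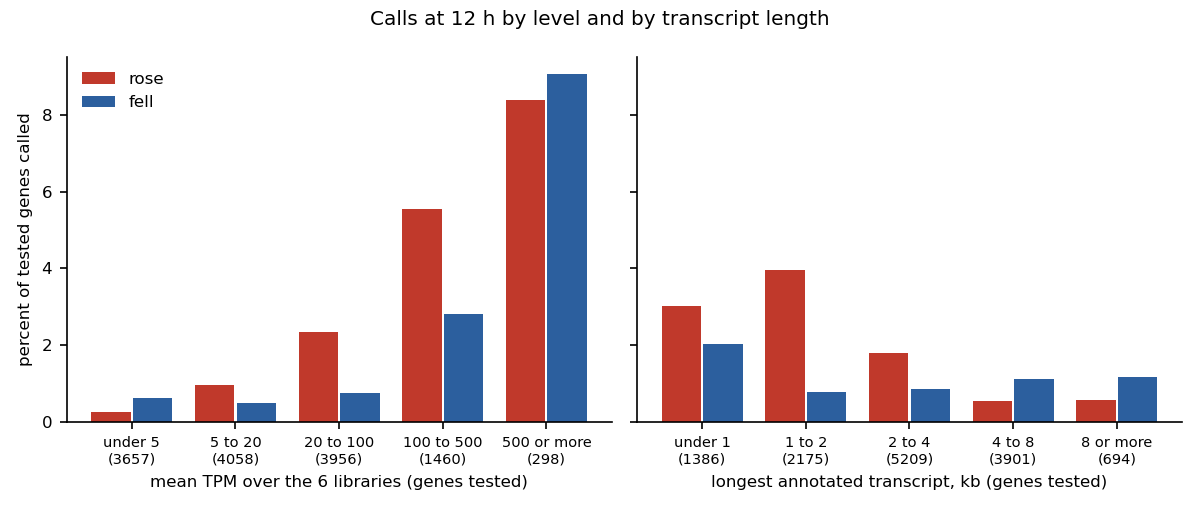
Bars give the percentage of tested genes that rose and that fell at 12 h by mean TPM over the 6 libraries (left) and by length of the longest annotated transcript (right), with the genes tested in brackets. The shares are highest at 500 TPM or more (8.39% rose, 9.06% fell), and by length the largest share of rises is that of 1000 to 2000 bases (3.95%).

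Chromosome 1 held 26 of the 141 falls, 2.90% of its 898 tested genes, and 14 rises. It carries Ptprc, the gene of CD45, whose alleles mark the groups. Ptprc (ENSMUSG00000026395, chromosome 1, 138062861 to 138175708 in GRCm38) measured 1656, 1390.1 and 1597 TPM in DECP and 2584, 2834 and 2556 TPM in DECN (log2 change -0.78, SE 0.13, adjusted p = 0.0298), and at 24 h its log2 change was -0.68 (adjusted p = 0.0486). Within 10 Mb of it, 7 of 108 tested genes were called (6.48%, beside 2.89% of all genes), and all 7 fell. They were Rgs18, Rgs2, Arl8a (-2.46), Ptpn7 (-1.76), Rnpep (-1.42), Yod1 (-2.97) and Gm38019 (-1.83). At 24 h, with the same CD45 alleles, Rgs18 alone of the 7 passed the threshold. The 24 h changes of the other 6 were -0.71 for Rgs2, 0.04 for Arl8a, -0.10 for Ptpn7, -0.61 for Rnpep, -0.73 for Yod1 and 0.65 for Gm38019, with adjusted p of 0.147 to 0.981. Rgs18 (ENSMUSG00000026357, chromosome 1, 144752683 to 144775435) stood at 0.0975, 0.208 and 0.728 TPM in DECP and 8.85, 4.10 and 7.91 TPM in DECN (log2 change -2.54, SE 0.35, adjusted p = 0.0203), and its 24 h change was -2.87 (adjusted p = 0.00896). Within 10 Mb of Ly75, on chromosome 2, 0 of 72 tested genes were called by limma. Around Ptprc the CD45 allele and the treatment cannot be told apart.

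The same comparison at 24 h, in 4 DECP and 4 DECN libraries of a separate table, used none of the 12 h libraries. The fit also held 4 libraries of DECP cells from hosts given 2.5 mg/kg rapamycin, an mTORC1 inhibitor, with the antibody. Of 12783 genes tested there, 348 rose (2.72%) and 169 fell (1.32%). With quantile normalization the split was 219 and 209. Of the 247 genes that rose at 12 h, 243 were tested at 24 h, 230 of them (94.7%) were higher in DECP, 84 were called higher and 0 lower, and their median log2 change was 0.67. Of the 141 that fell, 126 were tested, 106 (84.1%) were lower, 14 were called lower and 0 higher, and the median was -0.45. Over the 11848 genes tested at both times, 50.2% were higher at 24 h and the median was 0.00. Ppa1 (1.83, adjusted p = 0.00177), Srm (1.80, adjusted p = 0.00386) and Hspd1 (1.26, adjusted p = 0.00289) were among those called at both times. Tlr6 (-0.05, adjusted p = 0.981) and Zfp93 (-0.05, adjusted p = 0.991) had differences near 0 at 24 h.

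**Figure D5:**
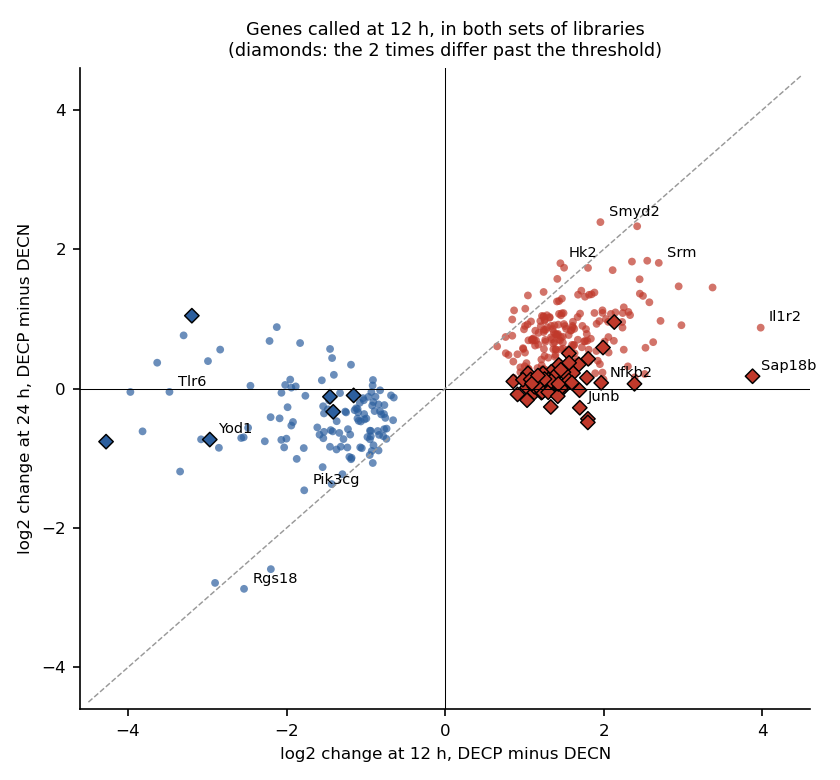
Each point is a gene called at 12 h and tested at 24 h, with its log2 change at 12 h on the horizontal and at 24 h on the vertical axis. Diamonds mark genes whose difference between the times passed the threshold, and the dashed line marks equal changes. Most rises lie above 0 and most falls below 0 at 24 h, with medians of 0.67 and -0.45. The genes were chosen by their 12 h values, so the sizes at the 2 times are not compared.

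The difference between the times was itself tested over all 18 libraries. It passed the threshold for 117 of 15085 genes (0.776%), of which 88 had a larger DECP over DECN difference at 12 h and 29 a smaller one. The count was 59 with the rapamycin libraries left out and 187 with quantile normalization. Of the 88, 45 were cytosolic ribosomal protein genes. In DECN cells the mean TPM of all 45 was higher in the 24 h table than in the 12 h table, by 1.70 to 105 times with a median of 21.6. Rps4x, for example, had a mean of 207 TPM in DECN at 12 h and 4473 at 24 h, and the part of this difference in level was not tested. Of the 117, 54 rose at 12 h, 12 fell and 51 were not called at 12 h. The time point stands with the table. The 4 Y-linked genes looked at after their values were seen, Ddx3y, Eif2s3y, Kdm5d and Uty, were expressed at 12 h and much lower at 24 h. Ddx3y was at 245 to 422 TPM in DECP and 351 to 442 TPM in DECN at 12 h, and at 0.283 to 1.61 and 0.412 to 19.1 TPM at 24 h. Uty measured 134 to 178 TPM in DECP and 236 to 288 in DECN at 12 h, without overlap (log2 change -0.75, adjusted p = 0.0738). The labels give no sex of the mice, and time, table and the level of Y-linked genes cannot be told apart in the tests between times.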

How the data were processed

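RNA of sorted cells was reverse transcribed and made into libraries with Nextera XT, which does not mark strand, per the labels' protocols. The submitters' processing notes name kallisto 0.43.0 and the build GRCm38. The authors deposited, per the file headers, a score of TPM plus 1 for each gene and library, and 1 was subtracted. In the authors' deposited tables of their own comparisons, a mean normalized count per group (a signal), a log2 fold change with its error and a p-value were made by software not given in the sources used here.

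The test was limma 3.58.1 (R 4.3.3) with an intensity trend on log2(TPM + 1), two-sided, over genes with TPM of at least 1 in 3 libraries (4 for the 24 h fit over 12 libraries, 3 for the interaction over 18). Ly75 had an exact permutation test. Coordinates are from GENCODE M21, and promoter windows from RefSeq. The pipeline was tested on simulated data. The replicate numbers were not used to pair samples in the main fit, since the labels do not tie libraries to animals. Same-numbered libraries deviated together little, which does not exclude pairing. Alternatives covered pseudocounts, filters, scalings, weights, the trend, a replicate block, transcript length and left-out libraries.

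The comparison, the lists and the settings were chosen with earlier results of these data known. Genes named are 15 listed by name, the 20 largest rises and falls (mean TPM of at least 5, groups apart, no immunoglobulin segments, pseudogenes, Gm or Rik symbols), the 15 most abundant of each direction, up to 6 genes per list and 5 per symbol family by smallest p, and the 10 genes per direction whose 12 h and 24 h differences differed most. Rpl31, Rpl32, Rps6 and their copies, Sap18, Uty and the genes near Ptprc were chosen after their values were seen, as was any other gene outside the rule. Some named genes are not reported here.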

Additional observations from a re-analysis of the deposited data

Results flagged for a closer look

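The difference between DECP and DECN differed between 12 h and 24 h for 32 of the genes named by rule, by the interaction term of limma over 18 libraries with an adjusted p under 0.05. Values are the log2 change at 12 h minus that at 24 h. Among signalling genes it was 1.97 for Junb, 1.89 for Nfkb2, 1.48 for Nfkbia and 1.73 for Cd69, an early activation marker that had an adjusted p of 0.0772 at 12 h alone in limma. In the authors' deposited table of the 12 h comparison Cd69 has a log2 change of 1.06 (adjusted p = 0.00124). The log2 change of Junb was 1.70 at 12 h and -0.28 at 24 h, and that of Nfkb2 1.97 and 0.08. The times also differ in their tables and in the level of Y-linked genes, whose part was not tested.

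For ribosomal protein genes it was 1.2 for Rpl29, 1.72 for Rpl37, 1.13 for Rpl4, 1.19 for Rpl7a, 1.45 for Rpl8, 1.36 for Rps13, 1.53 for Rps15, 0.83 for Rps18, 1.67 for Rps21, 1.63 for Rps24 and 1.35 for Rps4x. For other genes of translation, folding and RNA it was 1.05 for Eef1b2, 1.18 for Hspe1, 2.28 for Rpusd4 and 3.70 for Sap18b, and for Pef1, a calcium-binding protein gene, it was 2.23. Negative values were those of 2 ribosomal pseudogenes, -4.24 for Rpl31-ps6 and -3.52 for Rps6-ps3, and of Yod1 (-2.24), Oasl1 (-1.80), Erdr1 (-1.59), Tenm1 (-1.77), Kcnq5 (-1.34), Adgrl3 (-2.30), Ccdc34 (-1.06), Lrrc74b (-1.08), Optc (-1.83) and AC133103.7 (-4.13).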

How the results depend on the processing

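The 388 calls at 12 h became 30 with no filter on low values (24253 genes tested), 595 with a filter at 5 TPM and 103 with no intensity trend; the cause was not tested. The other planned settings that kept all 6 libraries gave 334 to 532, apart from the replicate block given below. With each library left out in turn the count ran from 0 to 101, and from 0 to 91 with the filter at 2 libraries, a setting added after the data were seen (0, 53 and 64 without DECP replicate 1, 2 or 3, and 0, 1 and 91 without DECN replicate 1, 2 or 3). With the filter at 3 libraries, 0 genes were called by limma without DECN replicate 1, 2 or 3, and 2088, 2039 and 2417 had an unadjusted p under 0.05. Each such fit has 1 library fewer, and 2 of the 5 left stand in the reduced group. Under the named settings that kept all 6 libraries, 0 of the 200 named genes called at 12 h changed sign, but 179 lost their call with no filter, 137 with no intensity trend and all 200 with the replicate block. Cxcr4, not called, ran from -0.094 (without DECP replicate 3) to 0.25 with each library left out, and Mtor, not called, from -0.32 (without DECN replicate 1) to 0.50.

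At 12 h the deviations of libraries with the same replicate number correlated little (-0.00278 to 0.0530, beside -0.0562 to 0.0300 for unlike numbers). So few libraries cannot settle whether those of a number share hosts, and the labels do not say. With the replicate block 0 genes were called by limma, with 2662 at an unadjusted p under 0.05. At 24 h, where the correlations were -0.0286 to -0.000915, the block gave 344 calls in place of 517, and leaving out libraries gave 274 to 411 (274 without DECP replicate 1, 300 without DECP replicate 3, 306 without DECN replicate 2 and 311 without DECN replicate 4). The 117 differences between times became 187 with quantile normalization and 59 with the rapamycin libraries left out, and 68 to 135 with each library left out (69 without DECN replicate 3 of 12 h, and at 24 h 74 without DECP replicate 2, 68 without DECN replicate 2 and 71 without DECN replicate 4). The exact permutation p of Ly75 was 0.1 in all alternatives run, the smallest these designs allow, and so shows nothing of stability. In limma its log2 change of 1.68 missed the threshold with no filter, with the replicate block and with each library left out, where it ran from 1.53 to 1.82. The medians of the lists MYC and MAX network, sterol synthesis, SR proteins and hnRNPs, histone methyltransferases and MHC class II changed sign under another scaling and are not read for direction, and with 1 library left out the medians of 15 of the 58 lists changed sign, each within 0.25 of 0. Read depth is unknown, so what it limits could not be given.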

Other observations

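Genes were also grouped by the leading letters of their symbols, in 49 families of at least 20 genes tested. The variable segments of the immunoglobulin kappa chain (Igkv) had 0 rises and 5 falls among 40, with 11 wholly lower in DECP and a median log2 change of -1.22. For the 5 the authors' deposited table gives no adjusted p. Its log2 changes for them are -0.588 to -1.43, beside -1.67 to -3.34 in limma. Igkv8-24, 1 of the 5, was at 0 in all 3 DECP libraries and at 3.88, 6.61 and 10.3 TPM in DECN. The WD repeat family (Wdr) had 6 rises and 0 falls among 55, led by Wdr77 (1.40) and Wdr46 (2.45), and the initiation factors (Eif) 5 rises and 0 falls among 55, with a median of 0.54. Of the mitochondrial ribosomal families, 29 of 30 Mrps and 46 of 50 Mrpl genes had a higher mean in DECP, with 1 rise in each. The Trim family of ubiquitin ligases had 0 calls by limma among 41 (10 at an unadjusted p under 0.05, and 2 higher and 2 lower in the authors' deposited table), with 13 wholly lower in DECP, 2 wholly higher and a median of -0.41. The solute carriers (Slc) had 3 rises and 3 falls among 226, and the zinc finger genes (Zfp) 1 rise and 4 falls among 311.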
